A study of Mus musculus with 111 samples.

Results

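The genes described here are 9 members of interleukin-6 family signalling and its targets in mouse gastrocnemius, the large calf muscle, during disuse. They are the cytokines Il6 and Lif, the receptor chains Il6ra, Osmr and Il6st, the transcription factor Stat3, its feedback inhibitor Socs3, and the secreted acute-phase proteins Serpina3n and Lcn2. Each gene is read by the probe set that names it alone and has the highest mean signal over 111 arrays, 1 gene to a probe set, out of 18194 genes so covered. The probe sets were chosen by signal on these arrays, and the gene list was proposed with earlier results of these data known, among them the leg differences of Serpina3n and Il6 at day 14 of casting. Differences between the legs, and how they vary by day and model, are therefore given as descriptions; where members past the limma threshold are counted for them, nothing is read from the count. All 9 genes were among the 16016 that passed the filter on dim probe sets, Il6 only through the few arrays in which it was high.

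Muscles came from 70 male mice of the C57BL/6 strain, given as C57/B6 in the design text for tenotomy. Cast and tenotomy animals were 8 weeks old at the start, no age being stated for sham and naive animals, and 16 groups were formed by treatment, leg and day. In the casting cohort the right hindlimb was immobilised in a cast and the left leg of the same animal was untreated, with 10, 7 and 9 cast and 9, 8 and 9 uncast muscles at days 2, 7 and 14. In the tenotomy cohort the right Achilles tendon was severed under ether and ketamine-xylazine, according to the study's design text, with 5, 7 and 5 muscles from each leg. The sample labels say the opposite: they call the left muscles of these animals tenotomy and the right muscles control. This conflict was not resolved, so tenotomy muscles are called right and left here, and every leg difference is right minus left. Sham animals, whose tendon was exposed and handled but not cut, gave 3, 7 and 8 right muscles, and 7 untreated naive animals gave right muscles as well. Every mouse carried its procedure on 1 side, so leg and treatment cannot be told apart, nor can the cohort and the model, because animals were numbered separately in each.

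Cytokines of this family bind a private receptor chain and then the shared chain gp130, encoded by Il6st. Janus kinases bound to gp130 phosphorylate STAT3, which enters the nucleus and switches on Socs3, whose product blocks the same receptors. In muscle, interleukin-6 and leukaemia inhibitory factor are known from exercise, injury and wasting, and oncostatin M acts through a receptor that pairs Osmr with gp130. Serpina3n is a protease inhibitor of the alpha-1-antichymotrypsin group and Lcn2 an iron-siderophore carrier, both produced by many tissues in the acute-phase response.

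The values are MAS5 signals, a linear brightness scaled so that the trimmed mean of each array is 99.95 to 99.97, and differences are on log2(signal + 3.98). The middle of all probe sets on an array had a signal of 16.1 to 26.4. A probe set's brightness depends on its own sequence, so levels of different genes are not ranked against each other. Muscle fibre markers were present in all groups, with 8 of 8 tested. Their mean log2 level lay 0.72 to 1.04 under naive muscle in both legs of cast animals. In right tenotomy muscles it lay 0.48 to 0.66 under naive muscle. At day 14 of casting it stood at -0.96 from naive in both legs. The log2 ratio of 3′ to 5′ beta-actin control probes, which follows RNA quality, averaged -1.19 in naive muscle, -0.73 to -0.33 in the casting groups and -0.02 to 0.12 in right tenotomy muscles. It averaged -1.31 to -1.123 in sham muscles and -0.828 to -0.375 in left tenotomy muscles. The part of either in the results was not tested.

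Serpina3n had the largest difference between legs of the 9 genes at all 3 days of tenotomy and at day 14 of casting, though not at days 2 and 7 of casting. In naive muscle its signal was 2.94 at the lowest, 6.27 at the median and 28.6 at the highest of 7 arrays. The 5 right tenotomy muscles of day 2 read 138, 145, 197, 260 and 444, and the 5 left muscles 2.42, 8.80, 12.4, 19.4 and 76.5. Every right muscle was brighter than every left one. At day 7 the right muscles ranged from 252.5 to 625.1 with a median of 322, against 2.01 to 10.6 with a median of 4.11 on the left, a difference of 5.42 (SE 0.47, n = 7 and 7). At day 14 right muscles read 40.2, 46.1, 47.2, 54.5 and 165 and left muscles 1.18, 2.14, 2.35, 6.01 and 6.94. The groups again did not overlap, although the right leg had come down from its day 7 level and the muscle at 165 stood far above the other 4. The differences at days 2 and 14 were 3.52 (SE 0.55) and 3.13 (SE 0.56).

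In cast animals Serpina3n stood above naive muscle in both legs at each day, and the legs drew apart later. At day 2 cast muscles ranged from 21.4 to 372 with a median of 53.9, and uncast muscles from 13.7 to 628 with a median of 35.8. The ranges overlapped almost fully and 4 of 9 animals had the higher value in the cast leg. At day 7 the medians were 82.7 in cast and 26.4 in uncast muscles, and at day 14 they were 161 and 30.4. The 9 cast muscles of day 14 ranged from 101 to 662, all above the 9 uncast muscles at 24.6 to 54.3. The leg difference moved from -0.20 (SE 0.40) at day 2 through 1.19 (SE 0.45) at day 7 to 2.58 (SE 0.41) at day 14.

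**Figure D1:**
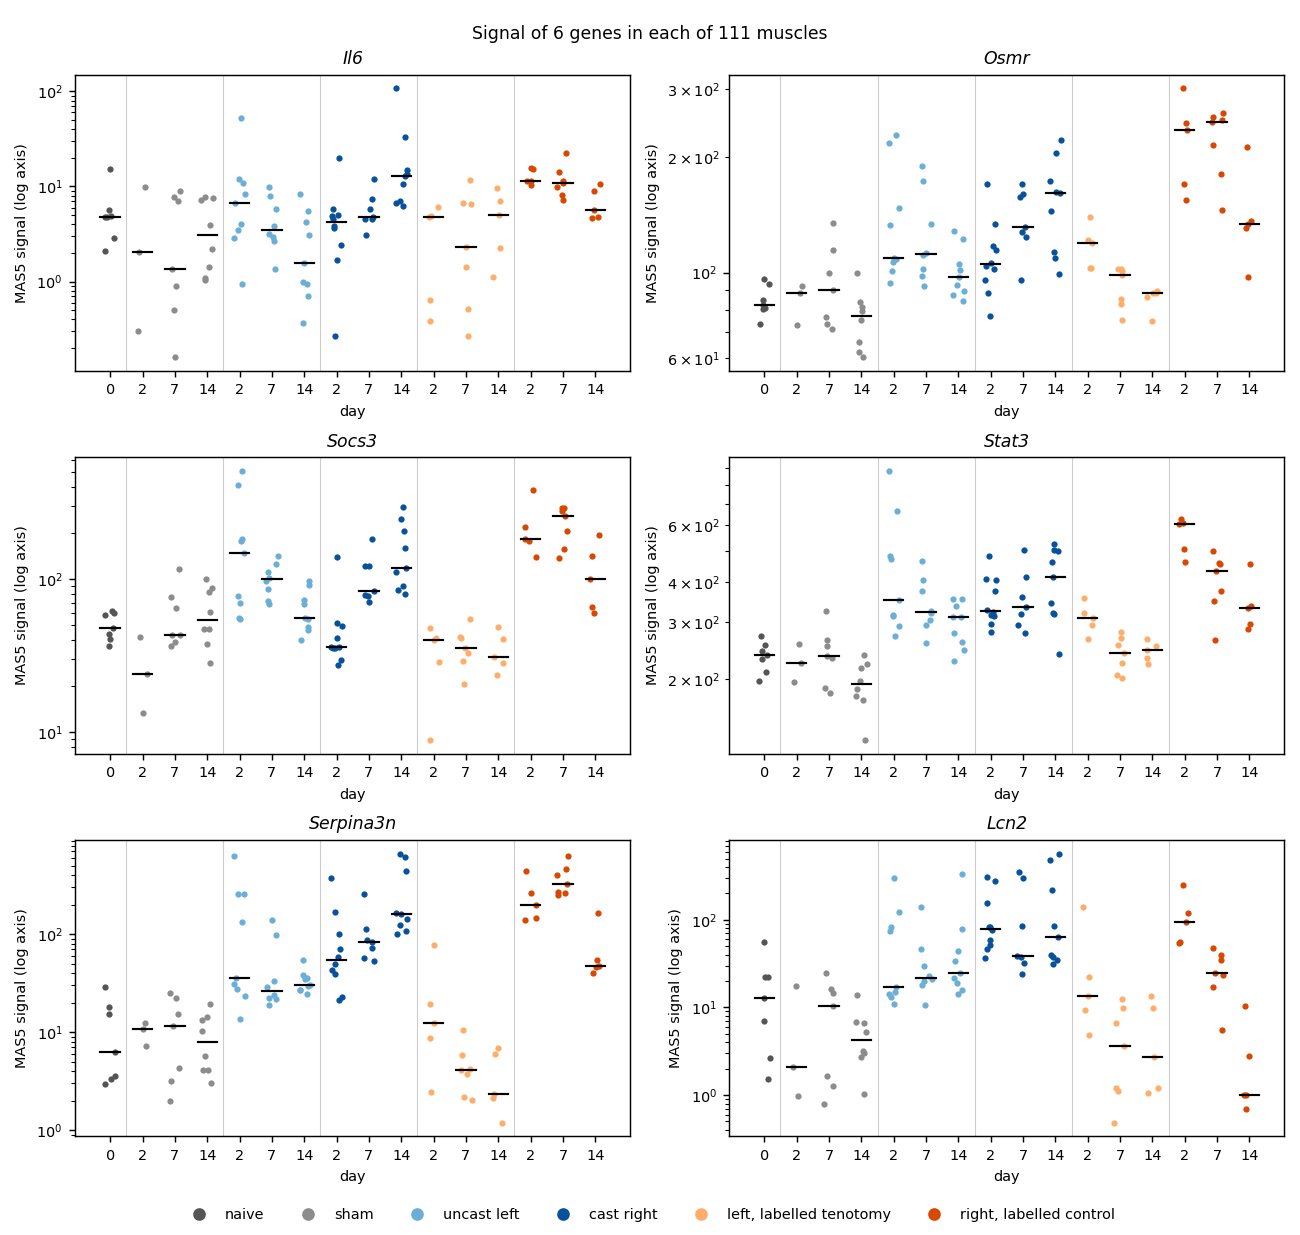
MAS5 signal (log axis) of 6 genes in each of the 111 muscles, by day within naive, sham, uncast left, cast right, left tenotomy and right tenotomy muscles; each point is 1 muscle and each bar a group median. Serpina3n and Socs3 lie above every left muscle in the right tenotomy muscles of each day, and Serpina3n above every uncast muscle in the 9 cast muscles of day 14 (101 to 662).

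Socs3, the feedback inhibitor and a direct STAT3 target, had right minus left differences of opposite sign in the casting and tenotomy cohorts at day 2. If the sample labels of the tenotomy legs hold, the labelled tenotomy leg was the lower one, at -2.65, as the cast leg was. In right tenotomy muscles of day 2 it read 140, 178, 183, 219 and 385, and in left muscles 8.84, 28.7, 40.1, 41.1 and 47.6. The legs did not overlap at this day, nor at day 7, when right muscles ranged from 138 to 293 and left muscles from 20.8 to 54.6, nor at day 14, at 60.02 to 193 against 23.8 to 48.8. The differences were 2.65 (SE 0.35), 2.53 (SE 0.30) and 1.49 (SE 0.36). In casting at day 2 it was the uncast leg that was bright, with signals from 54.9 to 511 and a median of 147, against 27.4 to 139 with a median of 35.7 in the cast leg. The uncast leg was higher in all 9 animals with both legs measured, and the fitted difference was -1.60 (SE 0.26). One cast muscle, at 139, lay far above the other 9. By day 14 the order had turned: cast muscles had a median of 119 and uncast muscles 55.7, 8 of 9 animals were higher in the cast leg, and the difference was 1.13 (SE 0.27). The 3 Socs3 probe sets gave differences of the same sign at days 2 and 14 in both cohorts, -1.60, -1.29 and -1.60 at day 2 of casting and 1.13, 0.91 and 1.54 at day 14.

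Stat3 itself moved less. Right tenotomy muscles ranged from 462 to 629 at day 2 against 266 to 356 on the left, with no overlap and a difference of 0.85 (SE 0.17). The differences were 0.73 (SE 0.15) at day 7 and 0.46 (SE 0.17) at day 14. In casting they were -0.26 (SE 0.13), 0.05 (SE 0.14) and 0.40 (SE 0.13), with 7 of 9 animals higher in the cast leg at day 14. The 2 dimmer Stat3 probe sets did not follow the 2 bright ones: at day 2 of tenotomy they gave 0.27 and 0.00 where the bright ones gave 0.85 and 0.63. Fitting the mean over probe sets lowered the day 14 casting difference to 0.26, past the threshold no longer.

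Of the receptor chains, Osmr followed Serpina3n most closely. Right tenotomy muscles ranged from 155 to 302 at day 2, 145 to 260 at day 7 and 97.6 to 212 at day 14. Left muscles ranged from 103 to 140, 75.1 to 102 and 74.8 to 89.3, so that every right muscle was above every left one at each day. The differences were 0.86 (SE 0.18), 1.21 (SE 0.15) and 0.66 (SE 0.18), and in casting -0.27 (SE 0.13), 0.14 (SE 0.15) and 0.56 (SE 0.13), all 9 animals being higher in the cast leg at day 14. The second Osmr probe set gave 0.78, 1.46 and 0.44 in tenotomy and 0.31 at day 14 of casting, and another, dim one gave 0.10 at day 14 of tenotomy. The mean over Osmr probe sets at that day was 0.41 and no longer past the threshold.

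Il6ra, the receptor chain specific to interleukin-6, had another time course. Right tenotomy muscles ranged from 104 to 162 at day 2 against 33.8 to 86.2 on the left, a difference of 1.13 (SE 0.20) that was 0.67 (SE 0.17) at day 7 and 0.38 (SE 0.20) at day 14. In casting it was higher in the cast leg at day 2: 29.9 to 73.2 with a median of 53.5, against 20.4 to 43.5 with a median of 27.9, higher in 9 of 9 animals (0.76, SE 0.15). At days 7 and 14 the differences were -0.02 (SE 0.16) and 0.30 (SE 0.15). The second Il6ra probe set gave only 0.24 at day 2 of casting but 1.05 at day 14 of tenotomy.

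Il6st, the shared chain, was nearly level between legs in its brightest probe set. Its group medians lay between 762 and 1036 in all 16 groups, and the legs differed by 0.02 (SE 0.08), 0.02 (SE 0.07) and 0.11 (SE 0.08) in tenotomy. In casting the differences were 0.03 (SE 0.06), 0.08 (SE 0.06) and 0.20 (SE 0.06), with 8 of 9 animals higher in the cast leg at day 14. Its 4 probe sets did not move alike: the dimmest gave 0.50 at day 2 of tenotomy, and the mean over all of them gave 0.09 at day 14 of casting, not past the threshold. Against naive muscle that mean was higher by 0.43, 0.44 and 0.45 in uncast legs and by 0.48, 0.57 and 0.55 in cast legs (largest adjusted p in limma 1.86e-04), where the brightest probe set gave 0.13, 0.10 and 0.04 and 0.16, 0.18 and 0.24. The cytokines Il6 and Lif were dim. Il6 exceeded the 40th percentile of its array in 11 of 111 muscles, 5 of them right tenotomy muscles of days 2 and 7 and 3 of them cast muscles of day 14. Right tenotomy muscles of day 2 read 10.3, 11.3, 11.4, 15.4 and 15.7 and left muscles 0.39, 0.64, 4.73, 4.87 and 6.03. These did not overlap, and the difference was 1.27 (SE 0.40). It was 1.07 (SE 0.34) at day 7 and 0.36 (SE 0.40) at day 14. In casting, the day 14 cast muscles ranged from 6.30 to 108 with a median of 12.8 and the uncast ones from 0.37 to 8.27 with a median of 1.55. The cast leg was higher in 9 of 9 animals, by 1.60 (SE 0.29), against -0.48 (SE 0.29) at day 2 and 0.23 (SE 0.32) at day 7. The size of an Il6 difference depends on the constant added before taking logs, and at day 14 of casting it was 0.83 with a constant of 16. Lif, a second gp130 cytokine, showed no such pattern: its leg differences lay between -0.37 (SE 0.25) at day 2 of casting and 0.31 (SE 0.34) at day 2 of tenotomy.

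Lcn2 was high in cast legs from day 2. Cast muscles of day 2 ranged from 36.2 to 310 with a median of 79.4 and uncast ones from 10.8 to 302 with a median of 16.9, and 8 of 9 animals were higher in the cast leg. The differences were 1.15 (SE 0.48), 1.25 (SE 0.55) and 1.28 (SE 0.50) at the 3 days. In tenotomy they were 2.10 (SE 0.67) at day 2, 1.81 (SE 0.56) at day 7 and -0.38 (SE 0.67) at day 14, when right muscles had a median of only 1.01. The tenotomy legs overlapped at each day. At day 2 right muscles ranged from 53.9 to 252.5 and left muscles from 4.80 to 139.1, with 5 of 5 animals higher on the right. The left muscle at 139.1 had a neutrophil marker sum of 3366.9. With a constant of 16 the day 7 tenotomy difference was 1.007, past the threshold no longer. Lcn2 varied widely within groups, and its highest values often came with high neutrophil markers. The summed signal of 8 such markers exceeded 1000 in 11 muscles, in which Lcn2 had a median of 218, against 17.2 in the other muscles. In uncast muscles of day 14 the highest Lcn2, 329, came with the highest neutrophil sum, 6507. Of 10 muscles with Lcn2 above 200, however, 4 had a neutrophil sum below 1000. By group, the median neutrophil sum ranged from 99.8 to 701, and Cxcr2 stayed below the 40th percentile in all muscles of 9 groups. No neutrophil marker passed the threshold between legs in casting, and 1 of 8 rose in tenotomy at days 2 and 7. The part of these cells in the Lcn2 values was not tested.

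**Figure D2:**
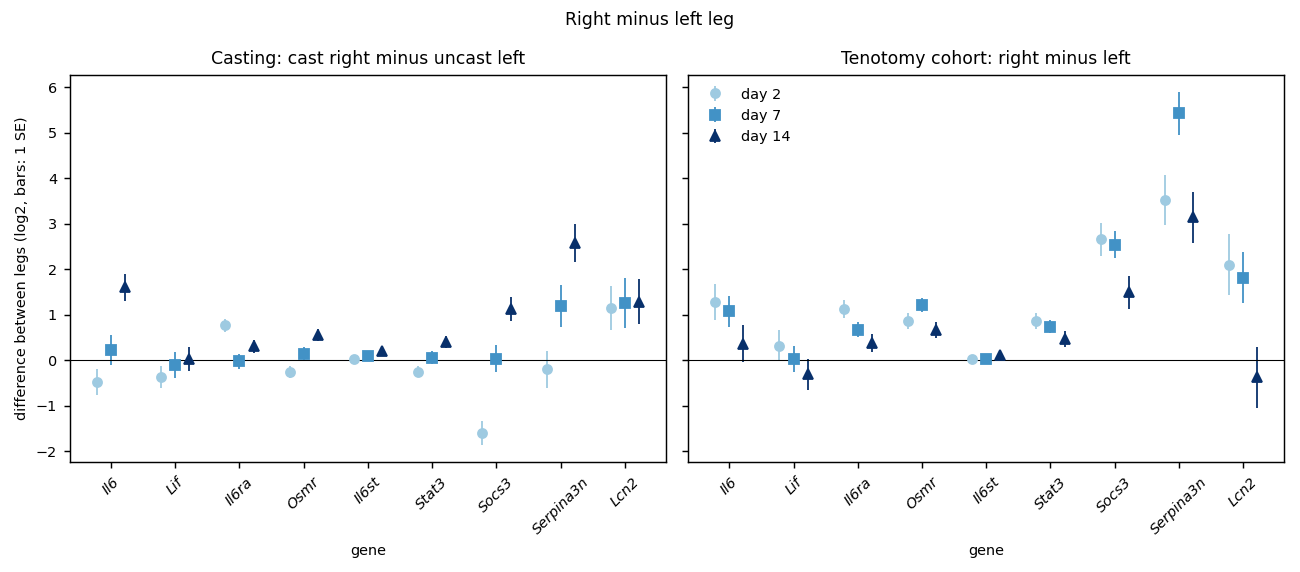
Right minus left difference (log2 of signal + 3.98, bars 1 SE) of the 9 genes at days 2, 7 and 14, for casting on the left and the tenotomy cohort on the right. Serpina3n reaches 5.42 at day 7 of tenotomy, while Socs3 lies at -1.60 at day 2 of casting and 1.13 at day 14.

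Counted against all genes, members past an adjusted p of 0.05 in limma were 7 of 9 at day 2 of tenotomy, where 36.8% of all tested genes passed, 7 at day 7 (33%) and 4 at day 14 (23.3%), all higher on the right. In casting they were 2 at day 2 (24.3%), Il6ra higher and Socs3 lower, 0 at day 7 (8.79%) and 6 at day 14 (13.3%), all higher in the cast leg. At day 7 of casting 2 members had an unadjusted p under 0.05, and Serpina3n passed without uncast replicate 4 (1.45) or 5 (1.39). Nothing is read from these counts, since the list was drawn up with leg differences in view. The Stat3 call at day 14 was lost in casting without any 1 of 6 arrays (cast replicates 3, 7, 8 and 9, uncast replicates 1 and 2; lowest difference 0.34). In tenotomy it was lost without any 1 of 7 arrays (right replicates 3, 4 and 5, left replicates 1, 2, 3 and 5; lowest difference 0.35).

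As a description, the bases before the start site of each member were searched for motifs of factors known to act on such genes. Stretches with matches are printed for Socs3, Il6, Lcn2 and Serpina3n only. The 9 genes all had an entry in the RefSeq promoter table (GRCm38.p6), and 250 bases upstream of each start were read on both strands. For Socs3 and Osmr the start used lies inside the annotated gene, and so do their whole windows, with the Socs3 STAT match given below. The Stat3 and Serpina3n windows reach into the annotated gene in part. The motifs were TTCNNNGAA for STAT factors, TTGCNNAA for C/EBP, TGANTCA for AP-1, and for NF-kB the letters GGG and CC separated by 5 bases, where a run can match on both strands in overlapping positions. These are found in 7.02%, 9.56%, 6.75% and 45.8% of 32851 upstream windows of the same length. A STAT match was present in Socs3 alone, C/EBP matches in Il6 and Lcn2, AP-1 matches in Il6 and Lif, and NF-kB matches in 7 of 9. Each stretch is printed 5′ to 3′ on the strand of its gene, with the matches named beside it in capitals; a further NF-kB match on the reverse strand within the Il6 stretch is left in lower case.
Socs3, chr11:117969502-117969530, minus strand, STAT match: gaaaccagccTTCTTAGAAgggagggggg
Il6, chr5:30012976-30013089, plus strand, C/EBP match then NF-kB match: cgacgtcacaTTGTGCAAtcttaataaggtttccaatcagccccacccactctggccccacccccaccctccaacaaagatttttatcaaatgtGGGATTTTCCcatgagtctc
Lcn2, chr2:32387822-32387965, minus strand, C/EBP match then NF-kB match: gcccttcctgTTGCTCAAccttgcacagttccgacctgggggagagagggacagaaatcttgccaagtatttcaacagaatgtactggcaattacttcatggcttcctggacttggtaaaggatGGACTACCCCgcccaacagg
Serpina3n, chr12:104406527-104406556, plus strand, NF-kB match: aacagaggtgGGGCTTTTCCcatcaggaag
The Socs3 stretch holds the palindrome of the STAT motif, the Il6 and Lcn2 stretches each show a C/EBP match farther from the start than the NF-kB match in capitals, and the Serpina3n stretch holds an NF-kB match and no STAT match was found in its 250 bases. A match describes letters only, and these arrays did not measure binding.

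Sham muscle came from other animals than those of the tenotomy cohort, so cohort and treatment cannot be told apart in comparisons with it. Against sham, right muscles had 7 of 9 members higher at day 2 (35.1% of all genes passed), 6 at day 7 (41.4%) and 4 at day 14 (36%). These comparisons share the right muscles with the leg differences and so are no second sample of them. At day 2 Serpina3n was 3.97 (SE 0.67) above sham, Lcn2 3.56 (SE 0.81), Socs3 2.91 (SE 0.43), Il6ra 1.73 (SE 0.24), Osmr 1.31 (SE 0.22) and Stat3 1.30 (SE 0.21), the largest adjusted p in limma among them being 1.75e-04 for Lcn2. The 3 sham muscles of day 2 read 7.23, 10.86 and 12.49 for Serpina3n and 13.3, 24.0 and 42.0 for Socs3, all below the lowest right muscle. Il6 stood 1.23 (SE 0.48) above sham at day 2, a description only, since right tenotomy muscles were among the few that brought Il6 past the filter. It was no longer past the threshold without sham replicate 2 (0.86) or 3, without right replicate 1 or 3, or with a constant of 16 (0.55). At day 14 Serpina3n (2.41, SE 0.52), Il6ra (1.16, SE 0.19), Osmr (0.84, SE 0.17) and Stat3 (0.82, SE 0.16) passed, and Socs3 at 0.79 (SE 0.34, adjusted p = 0.0562) did not.

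Few members passed for the left muscles of tenotomy animals against sham, not far from the shares of all genes. No member passed at day 2 (10.1% of all genes passed) or day 7 (19.2%), where 3 and 0 members had an unadjusted limma p under 0.05. At day 14 (20.8%) only Il6ra passed, 0.79 (SE 0.19) above sham, and its mean over 2 probe sets did not (0.21, adjusted p = 0.597). Serpina3n in left muscles differed from sham by 0.45 (SE 0.67), -0.70 (SE 0.49) and -0.73 (SE 0.52) at the 3 days. Lcn2 stood 1.46 (SE 0.81) above sham at day 2, and Socs3 at -0.59 (SE 0.32) and -0.70 (SE 0.34) at days 7 and 14, so sizeable differences are within the error here.

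In the uncast legs of cast animals several members stood apart from naive muscle at day 2, and fewer at day 14. At day 2, 6 members passed (28% of all genes did): Serpina3n was 2.64 (SE 0.46) higher in limma with an adjusted p of 3e-06, Socs3 1.42 (SE 0.30), Lcn2 1.41 (SE 0.56), Stat3 0.82 (SE 0.14) and Osmr 0.62 (SE 0.15), and Il6ra 0.58 lower (difference -0.58, SE 0.17). Mean levels of 10 macrophage markers were also higher in these legs, by 0.75, 0.69 and 0.56 at days 2, 7 and 14, and 9, 8 and 6 of the 10 passed; their part was not tested. The Lcn2 call had an adjusted p of 0.0462 and was lost without any 1 of 8 arrays (uncast replicates 1, 4, 6 and 9, naive replicates 3, 4, 5 and 7), with 1.08 as the lowest value. At day 7, 4 members passed (23.1%), Serpina3n at 1.68 (SE 0.48), Socs3 at 0.94 (SE 0.31), Osmr and Stat3 both at 0.52 (SE 0.15), Stat3 being lost with the mean of its probe sets (0.20). At day 14, 3 passed, a share near the 27.5% of all genes. They were Serpina3n at 1.52 (SE 0.46), Lif at 0.80 (SE 0.29) and Il6ra at -0.79 (SE 0.17). Serpina3n was lost with a constant of 16 (0.92). Lif was lost with the mean of its probe sets (0.30) and without any 1 of 5 arrays (uncast replicates 3 and 8, naive replicates 1, 2 and 5). The Il6ra differences rest on 1 probe set: the mean over both gave 0.00 at day 2 and -0.27 at day 14, neither past the threshold.

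Cast legs also stood apart from naive muscle. At day 2 Socs3 lay nearer to naive in cast legs than in uncast legs. Serpina3n, Stat3 and Osmr did not pass between the legs at that day (-0.20, -0.26 and -0.27). At day 2, 5 members passed (35.3% of all genes), led by Lcn2 at 2.56 (SE 0.55) and Serpina3n at 2.43 (SE 0.45), with Stat3 at 0.56 (SE 0.14), while Socs3 stood at -0.18 (SE 0.29, limma adjusted p = 0.692). Il6st at 0.16 (SE 0.06) and Osmr at 0.35 (SE 0.15) also passed. Osmr was lost without any 1 of 11 arrays (6 cast, 5 naive) and Il6st without any 1 of 9 (4 cast, 5 naive), with lowest values of 0.29 and 0.14. The count fell to 3 without cast replicate 1, 5, 8 or 10 or naive replicate 3, 5 or 7. With the mean of its probe sets Stat3 was lost at days 2 (0.22) and 7 (0.21). At day 7, 7 passed (30.1%), 6 higher, with Serpina3n at 2.87 (SE 0.49) and Lcn2 at 2.27 (SE 0.59), and Il6ra lower at -0.45 (SE 0.18). Il6ra and Il6st at that day were each lost without any 1 of 9 arrays (5 cast and 4 naive for Il6ra, 4 cast and 5 naive for Il6st). At day 14 all 9 passed (36.7%): Serpina3n at 4.10 (SE 0.46), Lcn2 at 2.62 (SE 0.56), Socs3 at 1.44 (SE 0.30), Il6 at 1.10 (SE 0.33), Lif at 0.82 (SE 0.29), Osmr at 0.80 (SE 0.15), Stat3 at 0.73 (SE 0.14), Il6st at 0.24 (SE 0.06) and Il6ra at -0.49 (SE 0.17). Il6 passed the filter partly through these cast muscles. Lif was lost without naive replicate 1 or 5 and with the mean of its probe sets (0.41), and Il6ra with that mean stood at 0.02. The comparisons of both legs with naive share muscles with the leg differences known when the list was drawn up. They are no second sample of those differences, and nothing is read from their counts. Both legs are set against the same 7 naive muscles, and casting and naive animals are different cohorts, so cohort and treatment cannot be told apart here.

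No member passed between sham and naive muscle. This was so at day 2 (0% of all genes passed), day 7 (0.631%) or day 14 (2.25%), and 2, 0 and 3 of them had an unadjusted limma p under 0.05. Few genes or none passed at each of these days, so the counts of 0 say nothing of the members. Only 3 sham muscles were measured at day 2. At that day Lif stood at 0.94 (SE 0.39), Socs3 at -0.91 (SE 0.41) and Lcn2 at -0.89 (SE 0.76) from naive, and Lcn2 was at -0.89 (SE 0.57) at day 14. Serpina3n differed from naive by 0.14 (SE 0.63), 0.08 (SE 0.49) and -0.07 (SE 0.48).

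The leg difference was also compared between days and between models. These values rest on the leg differences above, which were known when the list was drawn up, and are descriptions. In casting, the right minus left difference of 5 members passed the limma threshold as larger at day 14 than at day 2 (14.3% of all genes passed). Serpina3n differed by 2.78 (SE 0.58), Socs3 by 2.73 (SE 0.37), Il6 by 2.08 (SE 0.41), Osmr by 0.83 (SE 0.18) and Stat3 by 0.66 (SE 0.18). In tenotomy none passed for the same change (8.19%), 3 had an unadjusted limma p under 0.05, and Lcn2 at -2.48 (SE 0.94) was the largest. The right minus left difference was larger in tenotomy than in casting at day 2 for 5 members (34.1%), by 4.26 (SE 0.44) for Socs3, 3.73 (SE 0.68) for Serpina3n, 1.75 (SE 0.49) for Il6, 1.13 (SE 0.22) for Osmr and 1.11 (SE 0.21) for Stat3. At day 7 it was 5 members (18.9%), Serpina3n by 4.24 (SE 0.65), Socs3 by 2.50 (SE 0.42), Osmr by 1.06 (SE 0.21), Il6ra by 0.69 (SE 0.24, lost without cast replicate 7 at 0.59) and Stat3 by 0.68 (SE 0.20, and 0.37 with the mean of its probe sets, not past the threshold). At day 14 none passed (8.15%), 2 had an unadjusted limma p under 0.05, and Serpina3n differed by 0.56 (SE 0.69). Read as treated against untreated leg, these signs depend on the design text. With the tenotomy difference turned to left minus right, as the labels name the legs, tenotomy minus casting at day 2 would be -1.05 for Socs3, -3.32 for Serpina3n, -0.80 for Il6, -0.59 for Osmr and -0.60 for Stat3. At day 7 it would be -6.61 for Serpina3n, -2.56 for Socs3, -1.35 for Osmr, -0.64 for Il6ra and -0.79 for Stat3, and at day 14 it would be -5.71 for Serpina3n.

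Markers of macrophages moved with some of these members, not with all. Their mean log2 level stood 2.89, 1.46 and 0.79 above naive in right tenotomy muscles at days 2, 7 and 14 and -0.35, -0.26 and -0.51 from it in left ones. In cast legs it stood 0.21, 0.90 and 1.33 above naive. Between legs, Il6ra stood at 0.76 and Lcn2 at 1.15 at day 2 of casting, when 6 of the 10 markers fell. Lcn2 stood at -0.38 at day 14 of tenotomy, when 9 of 10 rose. All 10 markers rose at days 2 and 7 of tenotomy and at day 14 of casting. The summed signal of these markers in right tenotomy muscles ranged from 11677 to 15352 at day 2 and from 3560 to 9248 at day 7, while the median of Serpina3n was lower at day 2 (197) than at day 7 (322). Fibroblast markers rose in right tenotomy muscles too, 6, 7 and 6 of 7. In bulk muscle, more cells of a type and more RNA per cell cannot be told apart, and the part of these cells in the members' values was not tested. Liver markers, for a tissue where these acute-phase genes are strong, stayed dim, with summed signals of 3 markers at or below 61.8 in every muscle.

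**Figure D3:**
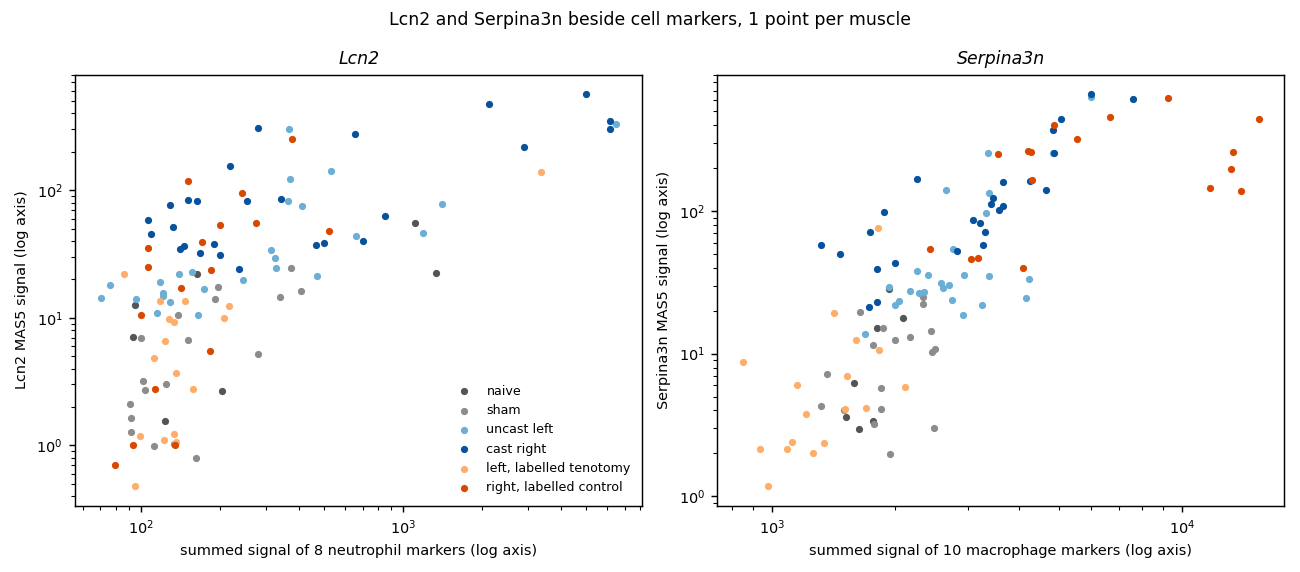
Signal of Lcn2 against the summed signal of 8 neutrophil markers (left) and of Serpina3n against that of 10 macrophage markers (right), log axes, 1 point per muscle. The 11 muscles with a neutrophil sum above 1000 have a median Lcn2 of 218, and right tenotomy muscles of day 2 have the highest macrophage sums (11677 to 15352) with Serpina3n between 138 and 444.

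Other acute-phase genes and STAT3 targets, 27 of 32 listed having been tested, are given as counts past the limma threshold, beside the share of all genes past it. Between legs in tenotomy 16 rose and 0 fell at day 2 (36.8% of all genes). On day 7 this was 15 and 0 (33%), and on day 14 it was 12 and 1 (23.3%), with list medians of 0.87, 0.74 and 0.63 against 0.03, 0.00 and 0.02 over all genes. At day 2 Timp1, an inhibitor of matrix proteases, rose by 3.48 (SE 0.44), the metallothioneins Mt2 and Mt1 by 2.70 and 2.60, and the transcription factors Junb and Myc by 2.42 and 2.18. In casting 2 rose and 3 fell at day 2, a smaller share than the 24.3% of all genes, when Timp1 stood at -2.03 (SE 0.32) and Fos at -1.50 (SE 0.29), both lower in the cast leg. At day 14, 11 rose and 0 fell (13.3%), led by Mt2 at 1.85 (SE 0.37), haptoglobin Hp at 1.55 (SE 0.38), Saa3 at 1.36 (SE 0.42), Mt1 at 1.27 and Timp1 at 1.26. Of 15 tested cytokines, receptors and signalling genes upstream of the family, 10, 10 and 8 rose in tenotomy and 0 fell (36.8%, 33% and 23.3% of all genes passed). At day 2 the monocyte chemokine Ccl2 rose by 3.07 (SE 0.45), and in casting Ccl2 turned from -1.19 (SE 0.33) at day 2 to 0.93 (SE 0.33) at day 14.

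The remaining ligands, receptors and signalling genes of the family, 22 tested of 28 listed, went in both directions. In tenotomy 5 rose and 5 fell at day 2 (36.8% of all genes). On day 7 this was 5 and 6 (33%), and on day 14 it was 3 and 5 (23.3%). Ebi3, a subunit of interleukin-27, rose by 1.97 (SE 0.37) at day 2 and 1.28 (SE 0.31) at day 7, and Il11, another gp130 cytokine, by 1.27 (SE 0.31) at day 7. Cntfr, the receptor chain for ciliary neurotrophic factor, fell at all 3 days, by 0.85, 0.92 and 0.83. In casting 4 rose and 4 fell at day 2 (24.3%), and 4 rose and 2 fell at day 7 (8.79%). At day 14 (13.3%) only Cntfr passed, falling by 0.80 (SE 0.18). At day 2 Stat5b rose by 0.82 (SE 0.10) and Socs1, a relative of Socs3, fell by 0.82 (SE 0.31). Osm, the ligand of Osmr, did not pass at any day, with 0.67 (SE 0.36) at day 2 of tenotomy and 0.54 (SE 0.27) at day 14 of casting. Of the neighbouring Serpina3 genes, Serpina3a and Serpina3i were tested and neither passed between legs; the other 8 were not analysed here.

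Over the 16 group means, Osmr and Serpina3n had a Pearson correlation of 0.92, Osmr and Stat3 0.92, and Socs3 and Serpina3n 0.87, as a description of groups that share animals and arrays. Among all other genes, those most like Serpina3n by this measure were Ccl8 (0.97), Emb (0.97) and Runx1 (0.96), and those most like Osmr were Serpinb1a (0.96), Ccl12 (0.96) and Csrp2 (0.95). For Il6 they were Rgs18 (0.90), Mcoln2 (0.90) and Ccl12 (0.89). For Lcn2 they were Ddx18 (0.92), Clptm1 (0.91) and Sfpq (0.90), none of them shared with the other 3 members.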

How the data were processed

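RNA of 111 gastrocnemius muscles was hybridised to 1-colour arrays of 45101 probe sets. The deposited values are linear intensity values (MAS5 signals), made by the authors with MAS5 and GCOS per the submitters' processing notes; their trimmed mean, without the 2% at each end, was 99.95 to 99.97 in every array, and versions and a genome build are not given in the sources used here. Probe sets with 1 gene symbol (34958) were kept, 932 with several and 9211 with none were left out, and 34754 symbols were looked up again by gene identifier. Where several probe sets named a gene, the one brightest on average over 111 arrays was used. Genes above their array's 40th percentile (9.65 to 17.8) in at least 5 arrays were tested, 16016 in all.

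Log2(signal + 3.98), the 20th percentile of all values, was fitted with limma 3.58.1 in R 4.3.3, with a mean for each of 16 groups and the animal as a random block, and Benjamini-Hochberg adjustment within each of 26 comparisons. The animal block rests on animal numbers in the sample labels, which pair 25 casting and 16 tenotomy animals. Paired legs had a mean correlation of deviations of 0.07 in casting and 0.06 in tenotomy, against -0.01 for legs of different animals in either, and the fitted animal correlation was 0.10. The number of arrays limits the precision, no array pair was identical, and each muscle counts as 1 sample. The fit was tested on simulated data. Members and gene lists were chosen with earlier results of these data known. Every member is named in every comparison, and from a context list at most 5 genes past the threshold with the largest differences; Osm, Il11, Socs1, Serpina3a, Serpina3i and the values of named genes at other days were added after their values were seen. Most alike genes are the 3 with the highest correlation. Alternatives changed the added constant, filter, normalization, block, arrays, probe sets or weights.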

Additional observations from a re-analysis of the deposited data

Results flagged for a closer look

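Among 135 sets of a gene's values in a group of 4 to 10 muscles, 7 held a muscle far from the others, where chance gives about 1 in 20. Il6 was 15.4 in naive replicate 1, 52.2 in uncast replicate 9 of day 2 and 20.1 in cast replicate 6 of day 2. Socs3 was 139 in cast replicate 10 of day 2. In tenotomy animals, Serpina3n was 165 in right replicate 3 of day 14, Lif was 2.05 in right replicate 6 of day 7, and Osmr was 74.8 in left replicate 4 of day 14, the lowest of its group.

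The right minus left difference passed the limma threshold between days or models for 15 comparisons of a member. The list was drawn up with leg differences known, so these are descriptions, and the tenotomy values hold for right minus left only. Between days 2 and 14 of casting (14.3% of all genes passed) it changed by 2.08 for Il6, 0.83 for Osmr, 2.78 for Serpina3n, 2.73 for Socs3 and 0.66 for Stat3. The tenotomy difference was larger than the casting one at day 2 (34.1%) by 1.75 for Il6, 1.13 for Osmr, 3.73 for Serpina3n, 4.26 for Socs3 and 1.11 for Stat3. At day 7 (18.9%) it was larger by 0.69 for Il6ra, 1.06 for Osmr, 4.24 for Serpina3n, 2.50 for Socs3 and 0.68 for Stat3. No member passed between days 2 and 14 of tenotomy (8.19%) or between models at day 14 (8.15%).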

How the results depend on the processing

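No count of members past the threshold between legs or against sham in right tenotomy muscles changed by more than 1.5 times under any setting run, except at day 7 of casting, where array weights gave 2 members in place of 0 and leaving out 1 array 0 to 1. Counts in other comparisons did: with array weights 5 in place of 3 for uncast legs against naive at day 14 and 3 in place of 5 for cast legs at day 2, with the mean of probe sets 3 in place of 5 for tenotomy against casting at day 7 and 0 in place of 1 for left tenotomy muscles against sham at day 14, and with only the groups compared 2 there, 1 in place of 0 for the same muscles at day 2 and 1 in place of 0 for the change of the tenotomy leg difference, where a constant of 16 also gave 1. Leaving out 1 array gave 0 to 1 in both of these last comparisons and 3 to 5 for cast legs at day 2. Shares of all genes were not set beside the counts under changed settings, so nothing is read from these changes. Leaving out 1 of 82 arrays in turn reversed no member's direction where it had passed. Only Il6ra reversed in any setting: in cast legs against naive at day 14 it was 0.02 (limma adjusted p = 0.953) with the mean of its probe sets, against -0.49. The cause was not tested. A stricter filter on dim probe sets left out Il6 and Lif.

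With the animal as a fixed replicate block, the paired fit gave 3, 0 and 7 members in casting and 7, 7 and 3 in tenotomy at days 2, 7 and 14. No share of all genes under that fit stands beside these counts, and nothing is read from them. The tenotomy call lost by the paired fit at day 14 was Stat3 (0.49, limma adjusted p = 0.0536), also lost with no replicate block (0.46, adjusted p = 0.0605). With no replicate block, Lcn2 in uncast legs (1.42, adjusted p = 0.0512) and Osmr in cast legs (0.35, adjusted p = 0.0536) at day 2 against naive were lost too, and no other member's call was lost by a change of block. Leaving out casting and naive arrays, and 3 arrays with raised low signals, was chosen after seeing the data. Dim signals limit Il6, Lif and, outside its high groups, Lcn2.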

Other observations

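The animal-to-animal spread of the Socs3 leg difference was set beside that of Il6, Osmr, Serpina3n and Lcn2, giving 16 relations over 7 or 9 animals each. The strongest was with Osmr at day 14 of casting, with Pearson's r of 0.85 (exact permutation p = 0.00588, n = 9 animals, adjusted p = 0.0941) and Spearman's rho of 0.83 (exact permutation p = 0.00827, adjusted p = 0.132). Without the 2 animals farthest from the median of Socs3, r was 0.87. No relation passed after Benjamini-Hochberg adjustment.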
